A study of Mus musculus with 6 samples.

Results

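The enzymes that release free glucose from phosphorylated sugars and from small carbon precursors, together with the dehydrogenases of glycerol phosphate, were followed in organoids of mouse small intestine exposed to the thyroid hormone T3. They comprise 10 genes, taken by gene symbol from the 27179 genes of the deposited table: G6pc, G6pc3, Slc37a4, Fbp1, Fbp2, Pck1, Pck2, Pcx, Gpd1 and Gpd2. Organoids are cultures of crypt epithelium that bud and differentiate in a gel matrix, here a drop of Matrigel under Intesticult medium. The T3 group (3 libraries) received the hormone at 1e-07 M for 17 h, and the vehicle group (3 libraries) received the solvent alone for 17 h. All 6 libraries came from organoids of wild-type (WT) genotype, and the labels give neither strain, sex nor age. Whether the libraries of a group stem from different cultures or mice is not stated, so each p-value reflects library-to-library spread, which may be technical.

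Gluconeogenesis runs glycolysis backwards around its irreversible steps, and each of those steps has its own enzyme. Pyruvate carboxylase and phosphoenolpyruvate carboxykinase return pyruvate to phosphoenolpyruvate, fructose-bisphosphatase removes a phosphate from fructose bisphosphate, and glucose-6-phosphatase frees glucose in the endoplasmic reticulum after the carrier encoded by Slc37a4 has brought glucose 6-phosphate in. Liver and kidney are the main sites, and the small intestine also carries the pathway. Glycerol phosphate dehydrogenases link this route to glycerol: the cytosolic enzyme (Gpd1) and the mitochondrial enzyme (Gpd2) together form a shuttle that passes electrons from cytosolic NADH to the respiratory chain, and in rodent liver the mitochondrial enzyme is a long-known target of thyroid hormone.

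Promoter windows from RefSeq (GRCm38.p6, 250 bases before to 50 after an annotated start) were matched by symbol for 9 of the 10 genes, 13 windows in all. The windows below are shown because G6pc made the largest change of the set, Slc37a4 is its partner in the same enzyme system, and Pck1, a classic hormone-regulated gene of liver, was close to silent here. Capitals mark AGGTCA, the core sequence bound by many nuclear receptors, and TTACGT, the core of cyclic AMP response elements in gluconeogenic genes, each searched on both strands (TGACCT and ACGTAA on the other strand). The windows lie at chr11:101367466-101367765 for G6pc, chr9:44396696-44396995 for the first of 3 Slc37a4 windows and chr2:173152823-173153122 for Pck1, all on the plus strand. Of the 3 Slc37a4 windows only the one shown holds AGGTCA or TTACGT. It ends before 44398176, where the counted Slc37a4 gene begins, and use of its start in these organoids was not tested.
G6pc: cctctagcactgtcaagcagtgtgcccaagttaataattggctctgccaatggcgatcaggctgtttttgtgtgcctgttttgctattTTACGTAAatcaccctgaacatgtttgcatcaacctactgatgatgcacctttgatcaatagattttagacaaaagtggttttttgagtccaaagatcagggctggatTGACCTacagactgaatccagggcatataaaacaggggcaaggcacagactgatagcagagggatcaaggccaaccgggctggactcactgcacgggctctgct
Slc37a4: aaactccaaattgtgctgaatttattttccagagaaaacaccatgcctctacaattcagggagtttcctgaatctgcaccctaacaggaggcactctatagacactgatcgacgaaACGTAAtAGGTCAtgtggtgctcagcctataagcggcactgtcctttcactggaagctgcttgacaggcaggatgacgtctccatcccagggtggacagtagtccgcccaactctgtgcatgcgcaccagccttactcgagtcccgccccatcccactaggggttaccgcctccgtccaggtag
Pck1: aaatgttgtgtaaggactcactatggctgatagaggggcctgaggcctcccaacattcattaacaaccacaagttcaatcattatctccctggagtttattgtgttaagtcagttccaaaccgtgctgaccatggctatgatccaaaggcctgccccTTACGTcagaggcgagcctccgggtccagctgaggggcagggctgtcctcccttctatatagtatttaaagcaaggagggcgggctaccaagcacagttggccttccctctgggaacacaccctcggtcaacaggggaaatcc

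AGGTCA lay on the minus strand of the G6pc window, at positions -54 to -49 from the start, and on the plus strand of the Slc37a4 window at -127 to -122. It was also present in the second Pcx window, at 40 to 45 after the start, and so in 3 of the 13 windows, while 16.3% of all 32851 RefSeq windows hold it. The direct repeat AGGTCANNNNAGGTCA, the arrangement classically bound by thyroid hormone receptors, was in none of the 13 windows and in 0.0152% of all windows. TTACGT was found in the windows of G6pc, where copies on either strand overlap at -162 to -155, of Slc37a4 (-134 to -129) and of Pck1 (-93 to -88). TTACGT is held by 2.72% of all windows. Its letters were chosen as those of elements in gluconeogenic genes, so matches in such genes are not independent of that choice. Enrichment was not tested. A TATAAA sequence lay at -29 to -24 in G6pc and at -32 to -27 in the third Slc37a4 window, and 13.6% of all windows have one. These matches describe letters in short windows and do not show binding.

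Values are normalized reads, which the authors scaled to make libraries comparable and then rounded, and a gene was called at a Benjamini-Hochberg adjusted p under 0.05 in limma across 13052 genes. Column totals were 29510422 to 29974091 in T3 libraries and 28197080 to 28611883 in vehicle libraries, with an estimated 29.7 to 31.1 M and 26.1 to 30.8 M reads behind them. T3 replicate 3 stood apart from the other T3 libraries (mean chi-square per gene 14.2 and 15.4 in its pairs, against 5.25 between replicates 1 and 2). To a lesser degree vehicle replicate 1 stood apart from the other vehicle libraries (8.32 and 9.88 in its pairs, against 4.66 between replicates 2 and 3). Calls were made for 44.8% of tested genes, 24.0% as higher and 20.8% as lower in T3 libraries. Higher genes made up 53.6% of calls as deposited, 38.8% once column totals were made equal and 43.0% after scaling to the upper quartile. The tissue label was checked against markers. Epcam, Cdh1 and Vil1, from a list of 9 genes of intestinal epithelium, were at 26225 to 44612 in T3 libraries and 16585 to 39458 in vehicle libraries. Of the 9, 6 were called higher and 1 lower, beside 24.0% and 20.8% of all genes. The lower one was Krt18, at a mean of 12214 with T3 and 13920 with vehicle. Markers of other tissues that use these enzymes were near 0. The 8 hepatocyte genes summed to 28 to 50 normalized reads in T3 libraries and 45 to 46 in vehicle libraries. Fgg, Ahsg and Tdo2 were at 0 throughout. The 6 kidney genes, which except for Nphs1 and Umod are of proximal tubule, were likewise low. They summed to 25 to 57 in T3 libraries and 26 to 42 in vehicle libraries, with Slc22a6, Slc22a8 and Umod at 0. Of 7 skeletal muscle genes, Ckm, Myh1, Myh2, Myh4 and Tnnt3 were at 0 in all 6 libraries, while Acta1 stood at 813 to 896 with T3 and 1028 to 1188 with vehicle.

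T3 changed the set unevenly. G6pc rose 4.24-fold, Gpd1 1.79-fold, Gpd2 1.71-fold and Pcx 1.34-fold, Fbp2 and Pck2 fell by small amounts, and G6pc3, Slc37a4 and Fbp1 were not called. So 4 of the 9 tested enzymes and carriers rose, beside 24.0% of all genes, and 2 fell, beside 20.8%; with both directions 6 of 9 were called, beside 44.8%. Pck1 reached the minimum of 10 normalized reads in 1 library, where 3 were needed, and was not tested. Groups did not overlap at 6 of the 9 genes, and at 54.9% of all genes tested. The median log2 fold change of the 9 genes was 0.08, and that of all genes tested -0.01. The same genes were called, in the same direction, under all 17 alternative settings, from other scalings to the removal of each library.

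**Figure D1:**
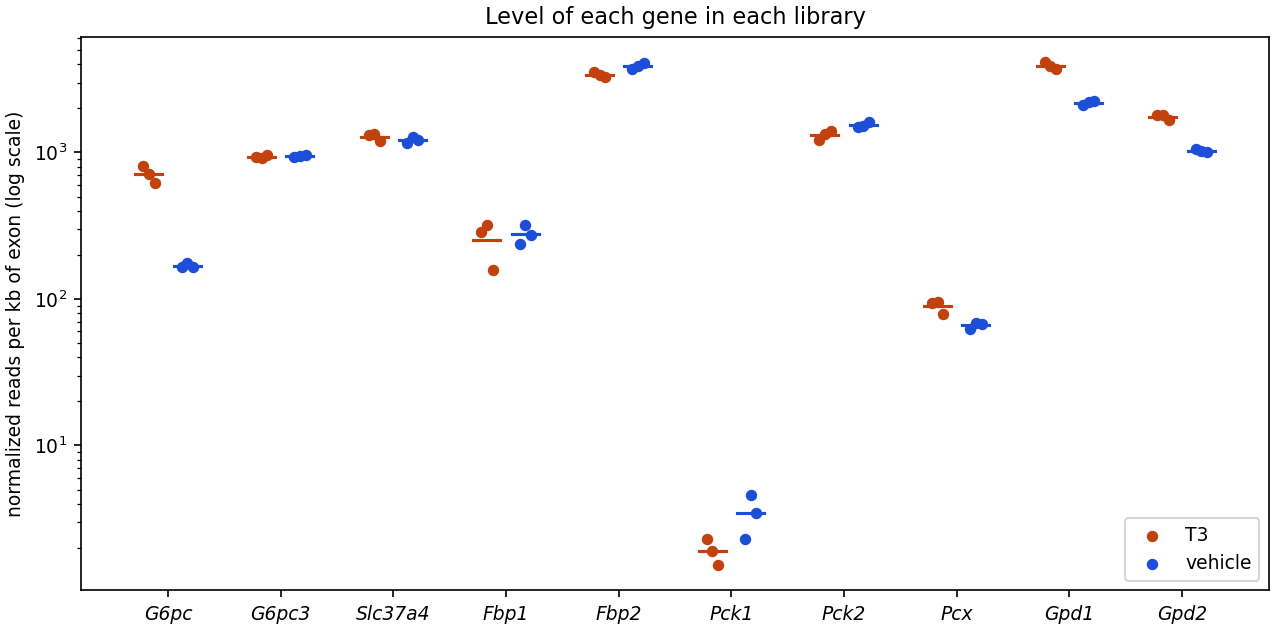
Normalized reads per kb of exon (log scale) for each of the 10 genes, with 1 point per library and a line at the group mean, T3 in orange and vehicle in blue. G6pc, Gpd1, Gpd2 and Pcx lie higher in the T3 libraries with no overlap, Fbp2 and Pck2 lie slightly lower, and Pck1 stays under 5 reads per kb in every library.

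**Figure D2:**
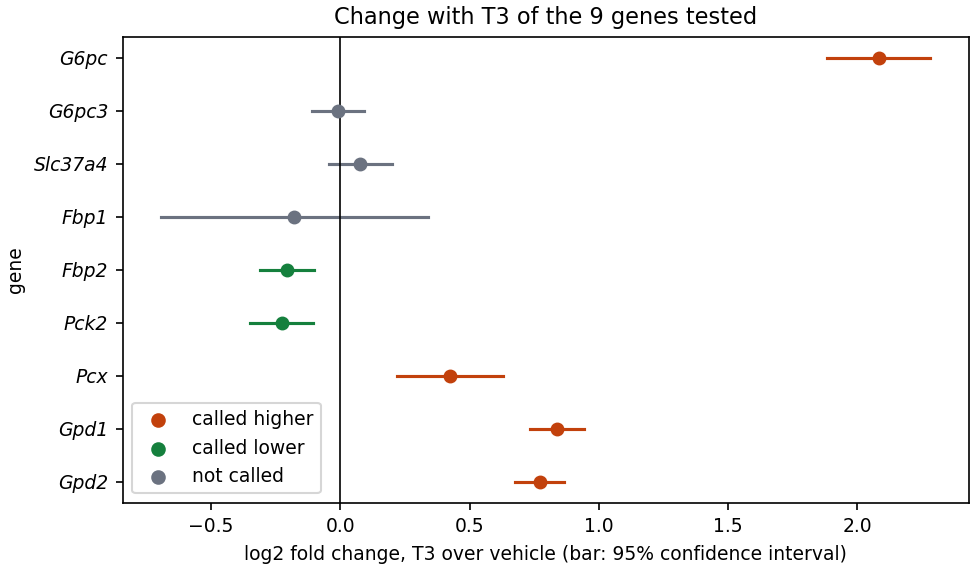
Log2 fold change of the 9 genes tested, T3 over vehicle, from limma, with 95% confidence intervals as bars. G6pc stands at 2.08, Gpd1 and Gpd2 lie close together at 0.84 and 0.77, and the interval of Fbp1 is the widest.

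At the final step of glucose release the tissue-restricted catalytic gene rose, while its relative and the carrier were not called. G6pc, the glucose-6-phosphatase of liver, kidney and intestine (gene ID 14377, chromosome 11, 101367730 to 101377903, 5 exons, GRCm38), had 1817, 1603 and 1393 normalized reads in T3 libraries, against 368, 392 and 368 in vehicle libraries. The lowest T3 library lay far above the highest vehicle library. The change was 2.08 ± 0.09 on the log2 scale (SE, limma, adjusted p = 1.39e-07), and 1.10% of the genes tested changed more in either direction. T3 replicate 3 had the lowest T3 value. Without it the log2 change was 2.18.

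G6pc3 encodes a catalytic relative that is found in most cell types and is known for its role in neutrophils (gene ID 68401, chromosome 11, 102189699 to 102194081, 6 exons). It had 1425, 1411 and 1493 reads in T3 libraries, against 1426, 1449 and 1482 in vehicle libraries. The groups interleaved, and the 95% confidence interval of the fold change ran from 0.93 to 1.06 (adjusted p = 0.882). Slc37a4, the glucose 6-phosphate carrier of the endoplasmic reticulum (gene ID 14385, chromosome 9, 44398176 to 44402966, 8 exons), had 2743, 2786 and 2486 reads in T3 libraries, against 2408, 2642 and 2541 in vehicle libraries. These groups overlapped as well, with an interval of 0.97 to 1.15 (adjusted p = 0.28).

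Ratios within a library do not depend on the scaling between libraries. Per kb of exon, G6pc stood at 0.760 of G6pc3 with T3, against 0.178 with vehicle. The log2 ratio was -0.40 ± 0.23 in T3 libraries, against -2.49 ± 0.06 in vehicle libraries (SD, n = 3 each). G6pc per kb was 0.555 of Slc37a4 with T3 and 0.138 with vehicle. For both ratios the groups did not overlap, and the exact permutation test, two-sided, gave p = 0.1, the smallest that 3 against 3 libraries allow (adjusted p = 0.2 over 4 ratios). Of the catalytic transcripts counted together, G6pc made up 43.2% ± 3.86 with T3 and 15.1% ± 0.551 with vehicle (SD, n = 3 each). Their sum per kb was 1650 ± 74.7 with T3 and 1109 ± 18.7 with vehicle (SD, n = 3 each), 1.49 times higher with T3.

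**Figure D3:**
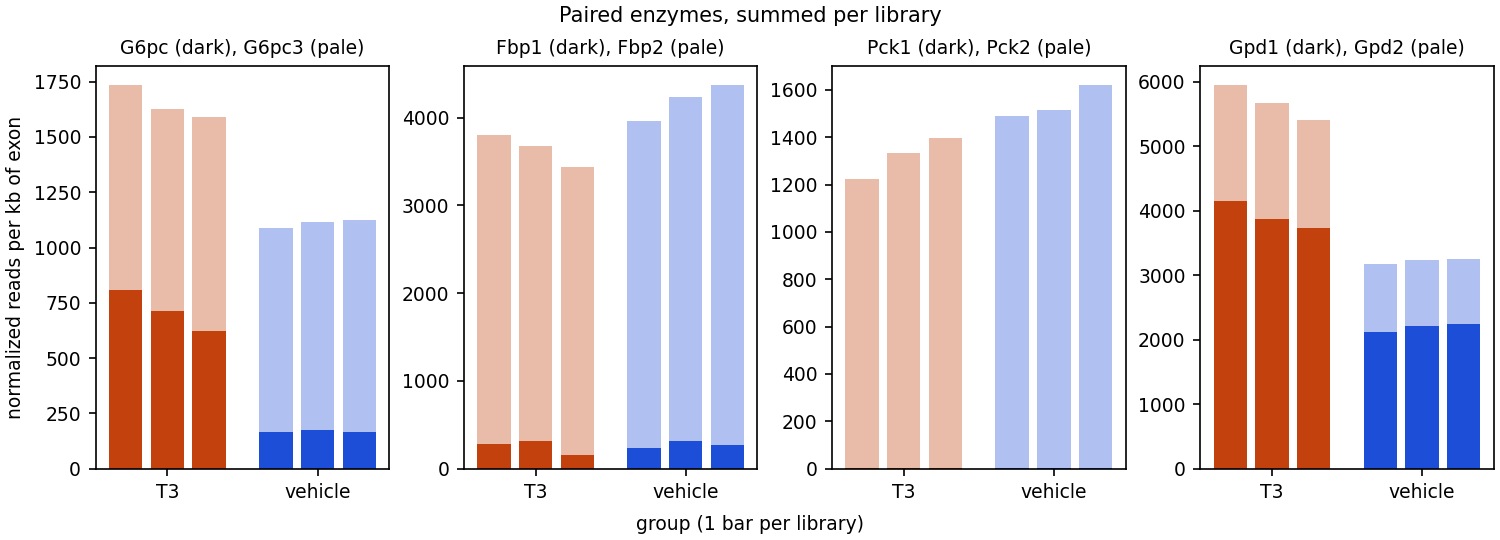
Summed normalized reads per kb of exon for 4 pairs of enzymes, with 1 bar per library, the first gene of each pair dark and the second pale. G6pc takes 43.2% of its pair with T3 and 15.1% with vehicle, Fbp2 and Pck2 make up nearly all of theirs in both groups, and Gpd1 and Gpd2 are higher together with T3.

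Fructose-bisphosphatase was almost wholly the isoform named for muscle. Fbp2 (gene ID 14120, chromosome 13, 62836885 to 62858370, 7 exons) and Fbp1, the liver and kidney isoform (gene ID 14121, chromosome 13, 62864753 to 62888236, 7 exons), are neighbours on the minus strand, 6382 bases apart. Fbp2 had 4557, 4350 and 4244 reads in T3 libraries, against 4815, 5068 and 5300 in vehicle libraries. Every T3 library lay below every vehicle library, by a small margin, and the log2 change was -0.21 ± 0.05 (SE, limma, adjusted p = 0.00528). In absolute size 46.4% of all genes tested changed more than this. Fbp1 had 408, 459 and 225 reads in T3 libraries, against 341, 458 and 391 in vehicle libraries. The groups overlapped, and T3 replicate 3 was the lowest of all 6 libraries.

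The log2 change of Fbp1 was -0.18 ± 0.23 (SE, limma, adjusted p = 0.561), with a 95% confidence interval of 0.62 to 1.26 for the fold change. Without T3 replicate 3 it was 0.14 (adjusted p = 0.394, within a range of 0.216 to 0.854 over the alternatives), so its direction rests on that library. Fbp1 made up 6.92% ± 2.12 of the pair per kb with T3 and 6.60% ± 0.826 with vehicle (SD, n = 3 each). The log2 ratio of Fbp1 to Fbp2 differed by 0.03 between the groups (exact permutation test, two-sided, p = 1). The transcripts of the pair share no stretch of 50 bases, and their longest identical run is 23 bases. No stretch of 50 bases was shared in the other pairs of related enzymes either.

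Phosphoenolpyruvate carboxykinase was represented by its mitochondrial form. Pck1, the cytosolic enzyme that controls gluconeogenesis in liver (gene ID 18534, chromosome 2, 173153073 to 173159254, 10 exons), had 6, 5 and 4 reads in T3 libraries, against 6, 12 and 9 in vehicle libraries. At this level a difference was not detectable, and in the authors' deposited table its log2 fold change was -0.74 with an adjusted p of 0.43. Pck2, the mitochondrial enzyme (gene ID 74551, chromosome 14, 55540266 to 55550017, 10 exons), had 4158, 4524 and 4745 reads in T3 libraries, against 5062, 5142 and 5494 in vehicle libraries. All T3 libraries lay below all vehicle libraries, with a log2 change of -0.23 ± 0.05 (SE, limma, adjusted p = 0.00738). Pck1 made up 0.147% ± 0.039 of the pair per kb with T3 and 0.223% ± 0.0748 with vehicle (SD, n = 3 each).

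Pcx, pyruvate carboxylase, makes the oxaloacetate that the carboxykinases use and also refills the citric acid cycle (gene ID 18563, chromosome 19, 4510472 to 4621752, 22 exons). It had 399, 407 and 338 reads in T3 libraries, against 267, 294 and 289 in vehicle libraries. The lowest T3 library lay above the highest vehicle library, and the log2 change was 0.42 ± 0.09 (SE, limma, adjusted p = 0.00434). Lrfn4, named here only because it overlaps Pcx on the opposite strand, had 608, 624 and 609 reads with T3, against 791, 968 and 958 with vehicle. Whether the authors counted by strand is not stated, so reads of the overlap cannot be assigned with certainty. Lrfn4 fell where Pcx rose.

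Both arms of the glycerol phosphate shuttle rose, by nearly the same factor. Gpd1, the cytosolic NAD-linked dehydrogenase (gene ID 14555, chromosome 15, 99717593 to 99725008, 8 exons), had 11553, 10785 and 10404 reads in T3 libraries, against 5888, 6157 and 6262 in vehicle libraries. Gpd2, the FAD-linked enzyme of the inner mitochondrial membrane (gene ID 14571, chromosome 2, 57237678 to 57370719, 18 exons), had 10643, 10669 and 9919 reads in T3 libraries, against 6274, 6071 and 5956 in vehicle libraries. For either gene the groups were far apart relative to their spread. The log2 changes were 0.84 ± 0.05 for Gpd1 (adjusted p = 7.94e-07) and 0.77 ± 0.04 for Gpd2 (adjusted p = 6.81e-07; SE, limma). A larger absolute change was made by 7.88% of the genes tested in the case of Gpd1 and by 9.12% in that of Gpd2.

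Per kb, Gpd1 was 2.23 times Gpd2 with T3 and 2.13 times with vehicle. The log2 ratio differed by 0.07 between groups, at 1.16 ± 0.05 in T3 libraries and 1.09 ± 0.08 in vehicle libraries, which overlapped (SD, n = 3 each; exact permutation test, two-sided, p = 0.5, adjusted p = 0.667). Together the pair reached 5673 ± 267 normalized reads per kb with T3, against 3219 ± 42.3 with vehicle (SD, n = 3 each). Gpd1l, a relative of Gpd1, had 3417, 3211 and 3550 reads with T3, against 4110, 3858 and 3965 with vehicle, and fell (log2 fold change -0.23, adjusted p = 0.00307).

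The order of levels per kb differed between the groups. With T3 it ran Gpd1, Fbp2, Gpd2, Pck2, Slc37a4, G6pc3, G6pc, Fbp1, Pcx and Pck1, from 3917 to 1.91 reads per kb, and the libraries of Pck2 and Slc37a4 overlapped. With vehicle it ran Fbp2, Gpd1, Pck2, Slc37a4, Gpd2, G6pc3, Fbp1, G6pc, Pcx and Pck1, from 3911 to 3.44 reads per kb, with no overlap between neighbours. G6pc was above Fbp1 with T3 and below it with vehicle, and Gpd2 was above Pck2 and Slc37a4 with T3 and below them with vehicle.

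Each bypass enzyme opposes a glycolytic enzyme, and the balance of their transcripts, with isoforms summed, was lower with T3 at all 3 cycles. This comparison was chosen after the values had been seen and is given without a test. At the glucose step, G6pc and G6pc3 summed per kb stood at 0.369, 0.340 and 0.443 of the hexokinase genes in T3 libraries, against 0.854, 0.771 and 0.806 in vehicle libraries. The hexokinase sum was 4359 ± 674 reads per kb with T3 and 1372 ± 87.7 with vehicle (SD, n = 3 each). Hkdc1, a hexokinase family member of epithelia, and Hk2 made up 94.8% of that sum with T3 and 87.3% with vehicle. The lower balance at this step depends on counting G6pc3, which was not called. G6pc alone stood at 714.6 reads per kb with T3 and 167.5 with vehicle, and its ratio to the hexokinase sum was higher with T3. At the fructose phosphate step the ratio of Fbp1 and Fbp2 to Pfkl, Pfkm and Pfkp was 0.439, 0.402 and 0.555 with T3, against 0.695, 0.733 and 0.739 with vehicle. At the pyruvate step the ratio of Pck1 and Pck2 to Pklr and Pkm was 0.0303, 0.0328 and 0.0458 with T3, against 0.0736, 0.0712 and 0.0766 with vehicle. The groups overlapped at none of these steps, and T3 replicate 3 was each time the T3 library nearest to vehicle.

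**Figure D4:**
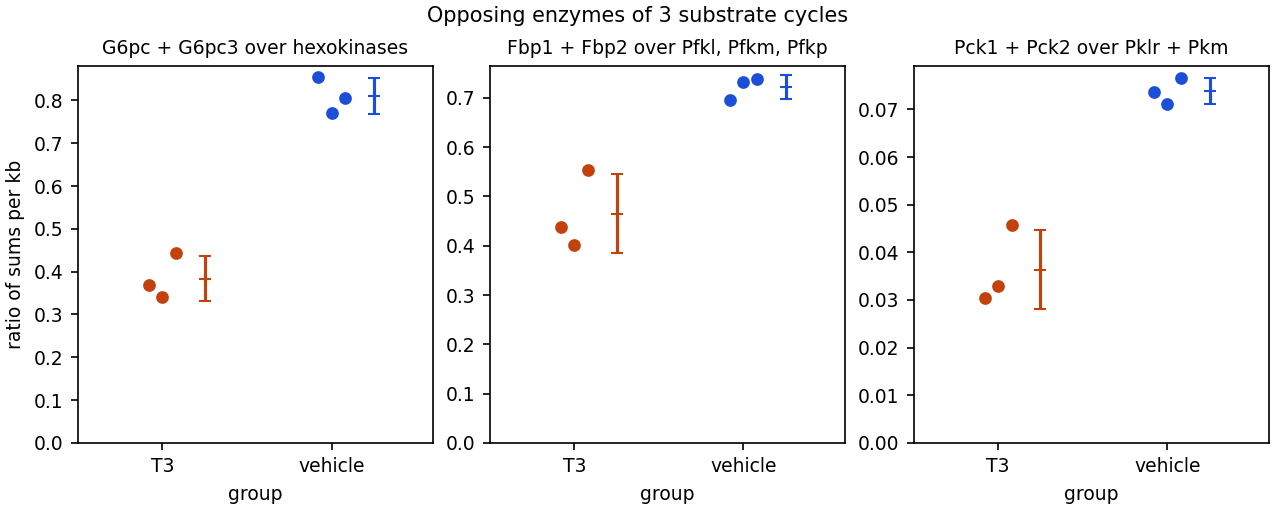
Ratio of gluconeogenic to glycolytic transcripts per library, each summed as normalized reads per kb, at 3 substrate cycles, with the mean and SD of each group beside its 3 libraries. T3 libraries lie at 0.340 to 0.443, 0.402 to 0.555 and 0.0303 to 0.0458, each range below that of the vehicle libraries. The first ratio sums G6pc with G6pc3, and for G6pc alone the ratio was higher with T3.

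The counts in the connected lists stand beside the same shares over all genes tested, 24.0% called higher and 20.8% called lower, and a median log2 fold change of -0.01. Those shares hold for the main fit only, and recounts under other settings have their own. With equal column totals 6293 of 13052 genes were called, 2442 of them higher. With upper-quartile scaling 6090 were called, 2616 of them higher. Without T3 replicate 3, 5895 of 12923 genes were called, 3140 of them higher. Among 13 tested glycolytic genes that oppose the set, 6 rose and 0 fell, with a median of 0.43. Hkdc1 had 11268, 11480 and 8183 reads with T3, against 2596, 2943 and 2887 with vehicle, and rose 3.63-fold (adjusted p = 1.34e-06). Hk2 rose 2.98-fold, Pkm, the widely expressed pyruvate kinase, 1.89-fold, and Pfkfb2, which makes an activator of phosphofructokinase, 1.44-fold. Of the 10 enzymes tested that both directions share, 2 were called higher and 0 lower, with a median of 0.28, and the share called higher was not above that over all genes. Gapdh, the dehydrogenase of glyceraldehyde phosphate, was among them and rose 1.33-fold (limma, adjusted p = 0.0276). Its groups overlapped, at 31086, 33148 and 21745 reads with T3, against 20098, 21275 and 22190 with vehicle. T3 replicate 3 was the lowest T3 library for every tested gene of these lists except Eno3 and Pfkfb1. Without that library 9 of the 10 were called higher, and 8 of the 13 opposing genes, beside 3140 of 12923 over all genes.

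Of 23 tested genes listed around carbon entry to the pathway, 15 were called higher and 2 lower, beside 24.0% and 20.8% of all genes. The median log2 fold change was 0.33. Not all of them bring carbon in: the list holds subunits and kinases of pyruvate dehydrogenase, which draws pyruvate away from the pathway. With equal column totals the counts were 13 higher and 3 lower. Got1, the cytosolic aspartate aminotransferase, had 4569, 4762 and 3953 reads with T3, against 1888, 2069 and 2033 with vehicle, and rose 2.21-fold (adjusted p = 1.13e-06). Pdhb, a subunit of pyruvate dehydrogenase, rose 1.92-fold, Slc25a10, the dicarboxylate carrier, 1.39-fold, and Mpc2, a subunit of the mitochondrial pyruvate carrier, 1.34-fold.

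Among 12 genes of glycerol handling 6 were called higher and 2 lower, beside 24.0% and 20.8% of all genes, with a median of 0.16. The number called higher was 4 with equal column totals and 5 with upper-quartile scaling. Pnpla2, the lipase that begins the release of glycerol from stored fat, rose 1.72-fold and Tkfc, the kinase that phosphorylates glyceraldehyde and dihydroxyacetone, 1.56-fold. Lpin3, a phosphatidate phosphatase, rose 1.40-fold, and Gpd1l fell as given above. Gk, glycerol kinase, chosen after its values were seen, had 440, 370 and 386 reads with T3, against 413, 444 and 418 with vehicle. It was not called (adjusted p = 0.375). The glycerol channels Aqp3, Aqp7 and Aqp9, chosen likewise, reached at most 12 reads in any library.

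Of 11 genes tested from a list of glucose and fructose carriers with fructokinase, 6 were called higher and 0 lower, beside 24.0% and 20.8% of all genes, with a median of 0.41. With equal column totals 5 were called higher. Slc2a2, the basolateral glucose carrier through which free glucose leaves enterocytes, had 3293, 2936 and 2817 reads with T3, against 628, 709 and 716 with vehicle, and rose 4.40-fold (adjusted p = 2.75e-08). The apical sodium-glucose carrier Slc5a1 rose 2.23-fold, the fructose carrier Slc2a5 2.84-fold and Slc2a10 1.95-fold.

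Of 30 tested regulators of gluconeogenic genes 9 were called higher and 5 lower, close to the 24.0% and 20.8% of all genes, with a median of 0.01. With equal column totals and with upper-quartile scaling 5 were called higher and 5 lower. Ppargc1a, a coactivator that raises G6pc and Pck1 in liver, had 1606, 1717 and 1386 reads with T3, against 287, 351 and 269 with vehicle, and rose 5.19-fold (adjusted p = 2.07e-07). Prkaa2, a catalytic subunit of AMP-activated kinase, rose 1.87-fold and Hnf4g, a nuclear receptor of gut epithelium, 1.53-fold. Foxa2, a forkhead factor that acts on gluconeogenic genes in liver, fell to 252, 255 and 293 reads with T3, against 548, 528 and 583 with vehicle. Gcgr, the glucagon receptor, also chosen after its values were seen, had at most 2 reads in any library.

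**Figure D5:**
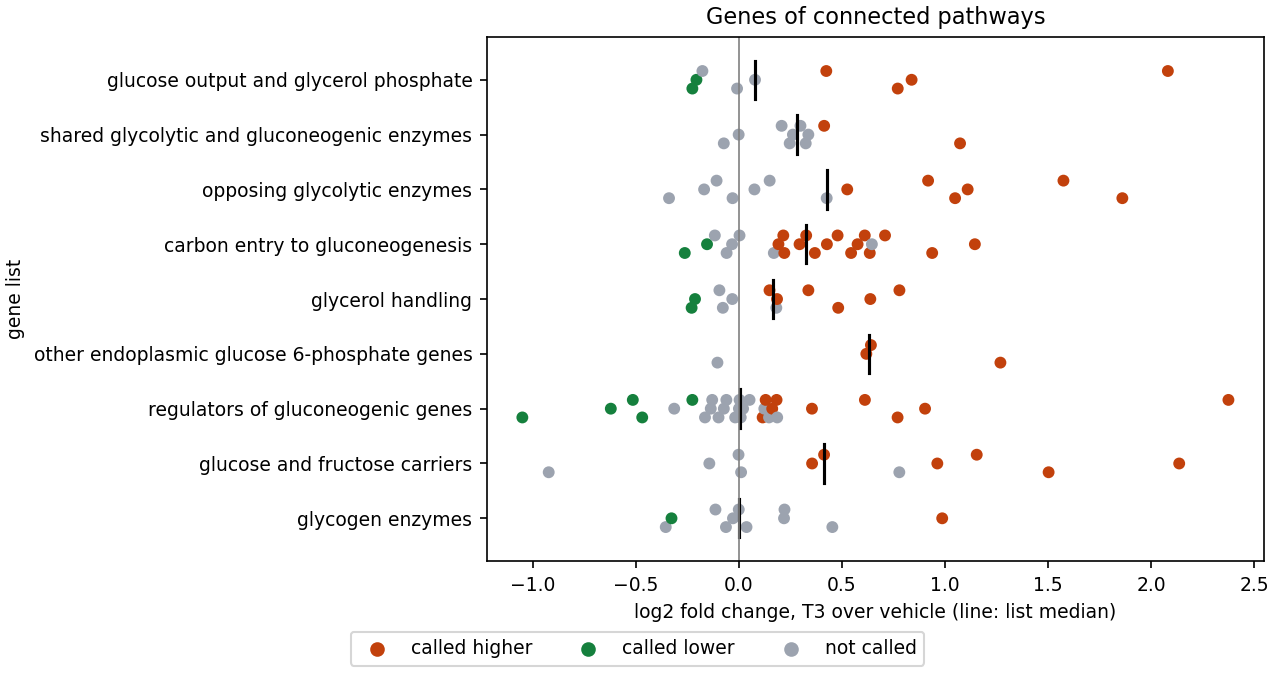
Log2 fold change, T3 over vehicle, of each tested gene in the set and in 8 lists of connected pathways, with a black line at each list's median and colours for the call. Calls lie mostly to the right of 0 for glycolytic enzymes, carbon entry and carriers, on both sides for regulators, and the glycogen enzymes centre on 0.

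Cell type markers also differed between the groups. Of 11 enterocyte genes 5 were called higher and 1 lower, beside 24.0% and 20.8% of all genes. They summed to 117896 to 133342 reads in T3 libraries and 89430 to 92291 in vehicle libraries. Sis made the largest difference within that sum, with a mean of 37607 with T3 and 15566 with vehicle. Fabp2 was called lower, at a mean of 5001 with T3 and 7892 with vehicle. Apoa4, Fabp1, Anpep and Dpp4 also had lower means with T3 but were not called. With equal column totals and with upper-quartile scaling 5 enterocyte genes were called higher and 3 lower. All 6 crypt stem cell genes were called lower, with sums of 26817 to 29991 in T3 libraries and 59506 to 67198 in vehicle libraries. In bulk RNA, more or fewer cells of a type and more or less RNA per cell cannot be told apart, and the part of cell makeup in the changes of G6pc, Gpd1, Gpd2 and Pcx was not tested.

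The genes whose profiles lay nearest to G6pc were found by Euclidean distance of log2 values, centred on the vehicle mean, over the 6 libraries among 10202 genes. They were Slc26a6, an anion exchanger of epithelia (distance 0.129), Slc2a2 (0.205) and H2-Q2, an MHC class I gene (0.210), whose reads may be shared with close relatives. Slc26a6 had 4162, 3893 and 3392 reads with T3, against 840, 884 and 896 with vehicle. Each of them, like G6pc, was lowest among the T3 libraries in replicate 3. All nearest genes were picked by likeness over these same libraries. A shared order of libraries or a similar fold change therefore comes with the choice and is no separate finding. The nearest to Gpd1 were Slc44a4 (0.0831), Trim31 (0.0873) and Kalrn (0.0896), with fold changes of 1.81, 1.77 and 1.76. For Pck1, whose few reads make its profile imprecise, the nearest were Pyroxd2, Scin and Mcf2l at distances of 0.417 to 0.478.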

How the data were processed

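Total RNA was extracted from T3-treated and vehicle-treated organoids and sequenced as directional libraries, per the labels' protocols. The submitters' processing notes list the tools STAR, Subread and DESeq2, with no version or setting. Per the file headers, the build was mm10 (GRCm38). The deposited sample columns hold reads per gene that the authors scaled between libraries and rounded, a normalized score and not a count: their mean equals the authors' mean column to within 0.833 in every gene. The authors' deposited table also gives exon length under another column, log2 fold changes and p-values.

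A gene was tested if 3 or more libraries reached 10 normalized reads, with limma 3.58.1 (R 4.3.3; statmod 1.5.0 for a robust version) on log2(value + 1), with a mean-variance trend and no replicate block. Fold changes on this scale understate changes of low genes. P-values were adjusted by Benjamini-Hochberg over the 13052 genes and called under 0.05. Scaling factors, and so depth, were estimated from gaps and doublings among low values. Both steps were first tested on simulated data. For limma the simulation recovered 20% of 1.25-fold, 78% of 1.5-fold and 94% of 2-fold changes. It made 149 calls among 13052 genes, far fewer than in the data, and had no library that stood apart. Its recovery may therefore not hold here. Ratios of genes used values per kb of exon and exact permutation tests (scipy 1.17.1), adjusted over 4 ratios. The ratio of Pck1 to Pck2 was not tested because Pck1 did not pass the filter.

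Replicates were kept apart, since each pair differed by more than sampling noise (mean chi-square per gene 4.66 to 15.4). The 10 genes and the lists of connected genes and markers were chosen with earlier results of these data known. Genes were named by rule: all 10 genes, and of each connected list at most 4 called genes with the smallest p; a gene that the rule names is not reported here. The 3 genes nearest in profile to G6pc, Pck1 and Gpd1 were also named, from genes with a mean of at least 100. The second deposited table repeats rows of the first and was not used.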

Additional observations from a re-analysis of the deposited data

How the results depend on the processing

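The counts of 4 genes called higher and 2 called lower held with equal column totals, upper-quartile and median-of-ratios scaling, pseudocounts of 0.5 and 5, no filter or a filter of 50, no trend, robust moderation, a threshold of 0.01 and without each library. With the replicate number as a block they were again 4 and 2, although same-numbered libraries deviated together with r of -0.07, 0.03 and -0.06 only, so they share a number and no pairing was established. T3 replicates 1, 2 and 3 correlated best with vehicle replicates 3, 2 and 1. Log2 changes ran from 1.99 to 2.18 for G6pc, 0.77 to 0.87 for Gpd1, 0.70 to 0.80 for Gpd2, 0.36 to 0.51 for Pcx, -0.29 to -0.17 for Pck2 and -0.27 to -0.17 for Fbp2. Leaving out libraries, G6pc3 ran from -0.034 to 0.0064 and Fbp1 from -0.38 to 0.14. The ratio of Fbp1 to Fbp2 ran from -0.18 to 0.32 and changed sign without T3 replicate 1 or 2 and without vehicle replicate 1 or 3; the cause was not tested. After the data were seen, lists were recounted without T3 replicate 3, which raised the called glycogen enzymes to 4 higher, against 1. Some lists lost calls in that recount. Regulators called higher numbered 7, against 9, genes of the carbon entry list 14 of 22, against 15 of 23, and enterocyte genes 4, against 5. Over all genes 3140 of 12923 were called higher without that library. Pck1 did not pass the filter on low values and was not tested in the main fit. In the fit with no filter Pck1 was included, and the counts stayed at 4 and 2.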

Other observations

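Other genes of glucose phosphate handling were followed beside the set. The relatives of Slc37a4 were higher with T3: Slc37a1 had 3965, 3799 and 3594 reads in T3 libraries, against 2210, 2577 and 2509 in vehicle libraries, Slc37a3 rose 1.54-fold, and Slc37a2 rose 2.41-fold to 603, 343 and 443 reads, against 210, 166 and 186 with vehicle. Slc37a3 is known for its part in releasing bisphosphonates from lysosomes. H6pd, the dehydrogenase that uses glucose 6-phosphate inside the endoplasmic reticulum, was not called (adjusted p = 0.139), though it was called lower with equal column totals and with upper-quartile scaling. G6pc2, the islet relative of G6pc, chosen after its values were seen, had at most 1 read in any library.

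Of 11 glycogen enzymes tested, 1 was called higher and 1 lower, beside 24.0% and 20.8% of all genes, with a median log2 fold change of 0.00. Without T3 replicate 3 the counts were 4 higher and 1 lower, where 3140 of 12923 genes were called higher. With equal column totals or upper-quartile scaling they were 1 higher and 2 lower, where 2442 or 2616 of 13052 genes were called higher. Gbe1, the branching enzyme, had 950, 1080 and 666 reads in T3 libraries, against 437, 476 and 421 in vehicle libraries, and rose 1.98-fold (limma, adjusted p = 0.000523). Gaa, the lysosomal glucosidase, had 2103, 2129 and 1830 reads with T3, against 2458, 2548 and 2588 with vehicle, a log2 change of -0.33 (adjusted p = 0.00164). Markers of other cell types were low. The 5 adipocyte genes summed to 149 to 225 reads with T3 and 120 to 165 with vehicle, nearly all of them Cidec, with Adipoq and Lep at 0. Fibroblast genes summed to 254 to 327 with T3 and 308 to 386 with vehicle, and endothelial genes to 7 to 10 with T3 and 12 to 13 with vehicle. Immune genes summed to 392 to 408 with T3 and 125 to 160 with vehicle, mostly Itgam, which rose 3.59-fold, while Ptprc, the general leukocyte marker, had at most 3 reads.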
